A study of Mus musculus with 16 samples.

Results

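Nccrp1, Kcnt1, Ppp1r1b, Wfdc15b, Rph3a, Lypd2 and Dusp15 are 7 of the 20525 genes in a deposited matrix of mouse kidney expression. They were picked by symbol because their log2 response to glycerol was more positive in C3-/- than in wild-type (WT) kidneys. The values of all 4 groups therefore chose them, no numerical limit came with that choice, and their own changes are given below as a description, with nothing read from how many of them pass a threshold. All 7 passed the filter on low values, which asks for 10 or more normalized counts in 4 or more libraries, as did 18035 genes in all.

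RNA was sequenced from lysed frozen kidney sections, 30 µm thick, of mice aged 8 weeks on the background that the labels spell C56BL/6. The 4 groups held 4 libraries each: C3-/- mice given glycerol, C3-/- mice given PBS, WT mice given glycerol and WT mice given PBS. C3-/- mice carry a disrupted gene for complement component C3, on whose cleavage the complement pathways converge. Glycerol (7.5 ml/kg of a 50% solution) was injected into the thigh muscle to cause rhabdomyolysis, and the comparison asks how the kidney response depends on C3. The sources used here give neither the time from injection to sampling, nor the part of C3 that is removed, nor whether each library is a separate animal, so the spread between libraries may be partly technical. The libraries carried the transcripts that define kidney: Slc12a1, the salt transporter of the thick ascending limb, averaged 78960 normalized counts in C3-/- PBS kidneys and 64280 in WT PBS kidneys.

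Rhabdomyolysis is a breakdown of skeletal muscle that floods the blood with heme proteins, which injure kidney tubules. Injured tubule cells lose transcripts of the differentiated segments and gain transcripts such as Havcr1, which encodes the injury marker KIM-1. The 7 genes belong to no common pathway: they include a channel, a phosphatase inhibitor, a phosphatase, a vesicle protein, a small protein of the family of secreted WAP-domain proteins, a surface-protein relative and an F-box-associated protein. In bulk tissue, fewer cells that express a gene and less of its RNA per cell cannot be told apart.

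Some features of the libraries were spread unevenly over the 4 groups. Each description ends in a number after an S, and the labels do not say what these numbers are. They run from 1 to 13 over 13 libraries, called list 1 here. The numbers 3, 4 and 5 repeat in 3 libraries, called list 2: C3-/- glycerol replicates 1 and 3 and WT glycerol replicate 4. Those 3 had scores of -143.62, -96.35 and -220.37 on a first principal component that held 45.0% of the variance, while list 1 lay between -39.53 and 58.56. WT glycerol replicate 4 listed 3374 genes at 0, against 190 to 982 in each other library. Transcripts of the Y chromosome were present in 11 libraries, namely C3-/- glycerol replicates 3 and 4, C3-/- PBS replicate 4 and all 8 WT libraries. The C3 transcript was no lower under the C3-/- label (845.7 ± 235.8 in C3-/- PBS kidneys, 397.9 ± 61.4 in WT PBS kidneys, SD, n = 4 each), so the directions given below rest on the labels.

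The RefSeq promoter table for build GRCm38.p6 held entries for 2 of the 7 genes, Wfdc15b and Rph3a, and a window of each is shown. Each is the 250 bases before an annotated start on the minus strand, printed 5′ to 3′ along the transcript. The Wfdc15b window is chr2:164221664-164221913 and the Rph3a window chr5:121010093-121010342. Capitals mark matches to motifs that were chosen after the sequences were seen.
Wfdc15b: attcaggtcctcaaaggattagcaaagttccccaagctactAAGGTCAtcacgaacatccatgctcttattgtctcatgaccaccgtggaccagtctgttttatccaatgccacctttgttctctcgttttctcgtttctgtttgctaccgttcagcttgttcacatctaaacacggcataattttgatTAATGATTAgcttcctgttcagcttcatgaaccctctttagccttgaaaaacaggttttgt
Rph3a: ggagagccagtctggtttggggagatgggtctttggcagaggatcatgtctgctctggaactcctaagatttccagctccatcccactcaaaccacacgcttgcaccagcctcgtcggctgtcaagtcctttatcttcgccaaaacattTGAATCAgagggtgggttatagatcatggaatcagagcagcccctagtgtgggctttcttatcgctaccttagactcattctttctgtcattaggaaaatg
Both strands were searched. In the Wfdc15b window, TAATNATTA, the core of the site that HNF1 factors of tubule epithelium bind, matched at positions -61 to -53 from the start, and AAGGTCA, the core element read by nuclear receptors, at -209 to -203. Of 32851 promoter windows of the same length, 0.588% held TAATNATTA and 4.08% held AAGGTCA. In the Rph3a window, TGANTCA, a loose form of the site of AP-1 factors with any middle base, matched as TGAATCA at -101 to -95. Of all windows, 6.75% held TGANTCA with any middle base, so neither the match nor that share is specific to AP-1 sites. TGACGTCA, the cyclic AMP response element, which 1.55% of all windows held, was in neither. The matches overlapped no other match, and 2 further Rph3a windows that start within the gene held none of the 4 motifs. Promoters of Nccrp1, Kcnt1, Ppp1r1b, Lypd2 and Dusp15 are not analysed here.

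After glycerol each of the 7 genes was lower in all 4 WT libraries than in any of the other 12 libraries, while the C3-/- glycerol libraries overlapped the C3-/- PBS libraries. The mean signal in WT glycerol kidneys was between 1.82% (Nccrp1) and 12.03% (Dusp15) of that in WT PBS kidneys. In C3-/- glycerol kidneys it was between 73.5% (Dusp15) and 121.5% (Lypd2) of that in C3-/- PBS kidneys. Values are DESeq2-normalized counts, listed from replicate 1 to 4 and in the plot of normalized counts by library.

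**Figure D1:**
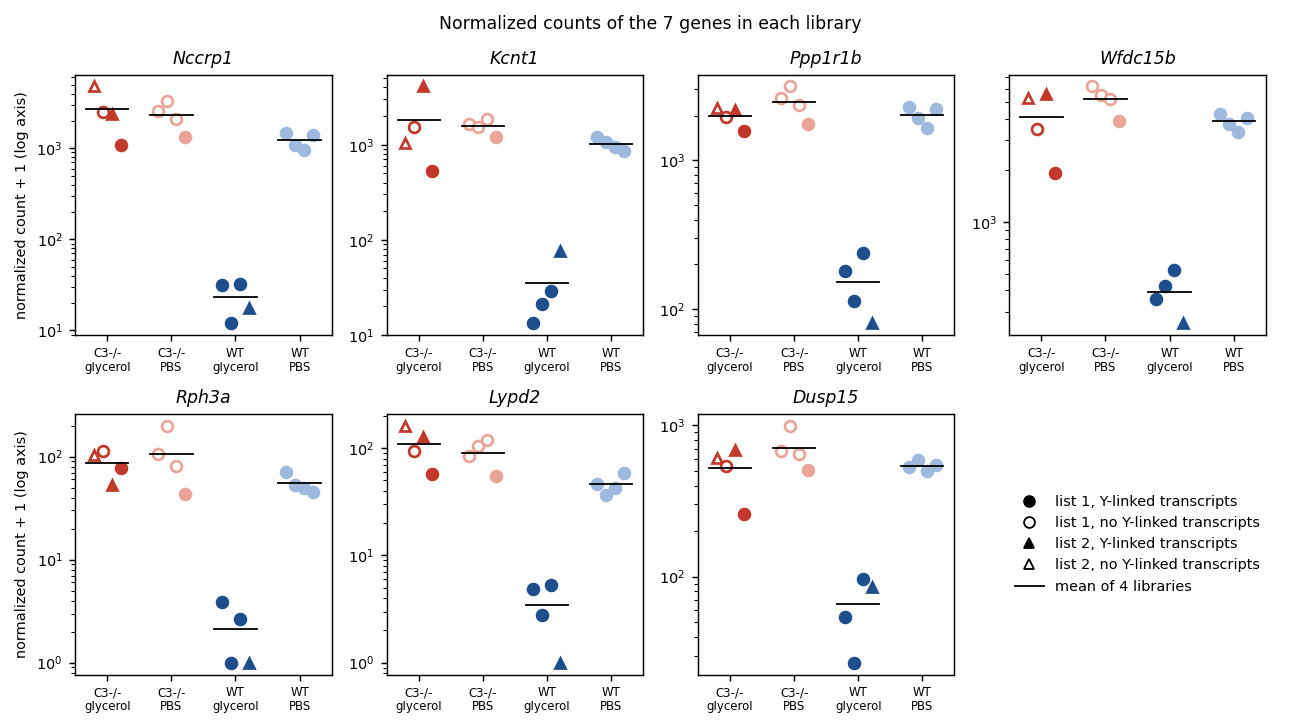
Normalized count plus 1 on a log axis for each of the 7 genes (panels) in each library (points), by group; bars are means of 4 libraries, triangles are list 2 libraries and filled symbols carry Y-linked transcripts. In every panel the 4 WT glycerol libraries lie below all others, and the C3-/- glycerol libraries overlap the C3-/- PBS libraries.

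Nccrp1 (ENSMUSG00000047586, chromosome 7, 28543596 to 28547254, minus strand in GRCm38) encodes a relative of the sugar-binding F-box proteins, known in human as FBXO50. Its signal was 4790, 2475, 2371 and 1085 in C3-/- glycerol kidneys, against 2540, 3300, 2105 and 1324 in C3-/- PBS kidneys. In WT glycerol kidneys it was 30.8, 10.9, 31.0 and 16.8, against 1463, 1095, 965.8 and 1404 in WT PBS kidneys. The lowest of the other 12 libraries stood 31.2 times above the highest WT glycerol library, on the log2(value + 1) scale the widest such gap of all 18035 genes. The log2 change with glycerol was 0.10 ± 0.42 (SE) in C3-/- kidneys and -5.82 ± 0.42 in WT kidneys, and after glycerol the C3-/- mean was 119.7 times the WT mean.

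Kcnt1 (ENSMUSG00000058740, chromosome 2, 25863734 to 25918273, plus strand) encodes the sodium-activated potassium channel Slack. Its signal was 1032, 1548, 4103 and 525.6 in C3-/- glycerol kidneys, against 1654, 1551, 1873 and 1196 in C3-/- PBS kidneys. WT glycerol kidneys had 12.2, 20.1, 28.1 and 74.7, against 1202, 1074, 942.7 and 859.6 in WT PBS kidneys. Kcnt1 had the widest relative spread of the 7 in C3-/- glycerol kidneys, with replicate 3 of list 2 high and replicate 4 below every PBS library. Its log2 change was -0.18 ± 0.54 in C3-/- kidneys and -5.18 ± 0.54 in WT kidneys.

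Ppp1r1b (ENSMUSG00000061718, chromosome 11, 98348404 to 98357796, plus strand) encodes DARPP-32, which inhibits protein phosphatase 1 once protein kinase A has phosphorylated it. In the rat kidney the protein is known from the thick ascending limb. Its signal was 2252, 1944, 2176 and 1574 in C3-/- glycerol kidneys, against 2628, 3138, 2336 and 1741 in C3-/- PBS kidneys. In WT glycerol kidneys it was 180.6, 112.8, 236.4 and 79.4, against 2289, 1935, 1661 and 2214 in WT PBS kidneys. The C3-/- glycerol values spread over less than 1.5-fold, and all 4 stood at least 6.66 times above the highest WT glycerol library. The log2 change was -0.29 ± 0.29 in C3-/- kidneys and -3.83 ± 0.29 in WT kidneys.

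Wfdc15b (ENSMUSG00000018211, chromosome 2, 164214454 to 164221660, minus strand) encodes a small protein with a whey acidic protein domain, the fold of secreted protease inhibitors such as SLPI. Its signal was 5313, 3507, 5620 and 1940 in C3-/- glycerol kidneys, against 6193, 5544, 5233 and 3871 in C3-/- PBS kidneys. WT glycerol kidneys had 355.1, 424.6, 523.8 and 254.7, against 4278, 3722, 3375 and 4074 in WT PBS kidneys. C3-/- glycerol replicates 2 and 4, both of list 1, lay below every C3-/- PBS library. The log2 change was -0.44 ± 0.30 in C3-/- kidneys and -3.35 ± 0.30 in WT kidneys.

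Dusp15 (ENSMUSG00000042662, chromosome 2, 152940997 to 152951698, minus strand) encodes a dual-specificity phosphatase. Its signal was 607.6, 534.0, 681.6 and 256.5 in C3-/- glycerol kidneys, against 678.5, 994.4, 647.9 and 507.6 in C3-/- PBS kidneys. In WT glycerol kidneys it was 53.2, 25.9, 95.5 and 84.4, against 526.6, 589.9, 494.5 and 543.8 in WT PBS kidneys. Dusp15 kept the most signal of the 7 in WT glycerol kidneys and had the narrowest gap, 2.68 times, between the highest WT glycerol library and the lowest other library, C3-/- glycerol replicate 4. The log2 change was -0.49 ± 0.38 in C3-/- kidneys and -3.19 ± 0.38 in WT kidneys.

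Rph3a (ENSMUSG00000029608, chromosome 5, 120940499 to 121010092, minus strand) encodes rabphilin-3A, which binds the vesicle GTPases Rab3A and Rab27 in regulated secretion. Its signal was 102.9, 111.1, 51.9 and 76.4 in C3-/- glycerol kidneys, against 104.4, 198.4, 79.5 and 42.1 in C3-/- PBS kidneys. WT glycerol kidneys were listed at 2.84, 0, 1.64 and 0, against 70.1, 52.3, 48.3 and 44.7 in WT PBS kidneys. Every WT glycerol value lay near the floor of the matrix, and the groups of C3-/- kidneys overlapped fully. The log2 change was -0.15 ± 0.50 in C3-/- kidneys and -4.92 ± 0.50 in WT kidneys, where adding 1 to values this low understates it.

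Lypd2 (ENSMUSG00000022595, chromosome 15, 74732247 to 74734329, minus strand) encodes a small protein of the Ly6 and urokinase receptor family. Its signal was 161.0, 93.7, 125.9 and 56.1 in C3-/- glycerol kidneys, against 83.3, 103.0, 119.3 and 54.0 in C3-/- PBS kidneys. In WT glycerol kidneys it was listed at 3.86, 1.79, 4.25 and 0, against 45.2, 35.3, 41.7 and 57.7 in WT PBS kidneys. Lypd2 was, with Nccrp1, 1 of 2 members whose log2 change in C3-/- kidneys lay above 0, at 0.23 ± 0.48. In WT kidneys the log2 change was -3.96 ± 0.48, again understated by the low values.

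Set side by side, the median log2 change of the 7 genes with glycerol was -0.18 in C3-/- kidneys (all genes -0.06) and -3.96 in WT kidneys (all genes -0.11). The difference between the 2 responses, C3-/- minus WT, ran from 2.70 ± 0.53 (Dusp15) to 5.91 ± 0.59 (Nccrp1), with a median of 4.20 (all genes 0.03). The other 5 had differences of 4.99 ± 0.76 (Kcnt1), 4.77 ± 0.71 (Rph3a), 4.20 ± 0.68 (Lypd2), 3.54 ± 0.40 (Ppp1r1b) and 2.91 ± 0.42 (Wfdc15b). Counted from the highest of 18035 genes, Nccrp1 ranked 2, Kcnt1 8, Rph3a 13, Lypd2 26, Ppp1r1b 55, Wfdc15b 127 and Dusp15 158. After glycerol the C3-/- minus WT difference had a median of 5.14 for the 7 genes (all genes 0.04).

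The background against which those values stand was uneven. A limma fit over all 16 libraries, with adjusted p below 0.05 as its threshold, called 5.63% of genes for glycerol in C3-/- kidneys (1.96% lower) and 0 of the 7. It called 25.9% for glycerol in WT kidneys (13.3% lower) and 7 of 7, 11.2% between C3-/- and WT after glycerol (6.38% higher) and 7 of 7, and 0.438% for the difference between the responses (0.222% higher) and 7 of 7. Since the members were picked on these contrasts, nothing is read from their counts. All 4 WT glycerol values below all other 12 libraries occurred in 4.01% of genes and in 7 of 7 members, and overlap of the C3-/- glycerol and PBS values occurred in 80.8% of genes and in 7 of 7. The number of genes called for the difference between the responses, 79, depended on single libraries: it was 211 without WT glycerol replicate 4, 179 without C3-/- glycerol replicate 1, 44 without WT glycerol replicate 1, and 38 to 42 when C3-/- PBS replicate 1, 2 or 3 or any 1 WT PBS library was left out.

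In the authors' deposited table of C3-/- glycerol over C3-/- PBS the 7 genes had log2 fold changes between -0.44 (Dusp15) and 0.28 (Lypd2). In the authors' deposited table of WT glycerol over WT PBS they ran from -5.70 (Nccrp1) to -3.12 (Dusp15), and in the authors' deposited table of C3-/- glycerol over WT glycerol from 3.07 (Dusp15) to 6.83 (Nccrp1). Kcnt1, at 0.20 in the first of these tables, and the mean-based ratio of 114.9% above stood over the PBS level, whereas its log2(value + 1) change was -0.18. That change was 0.27 without C3-/- glycerol replicate 4 and -0.71 without replicate 3.

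**Figure D2:**
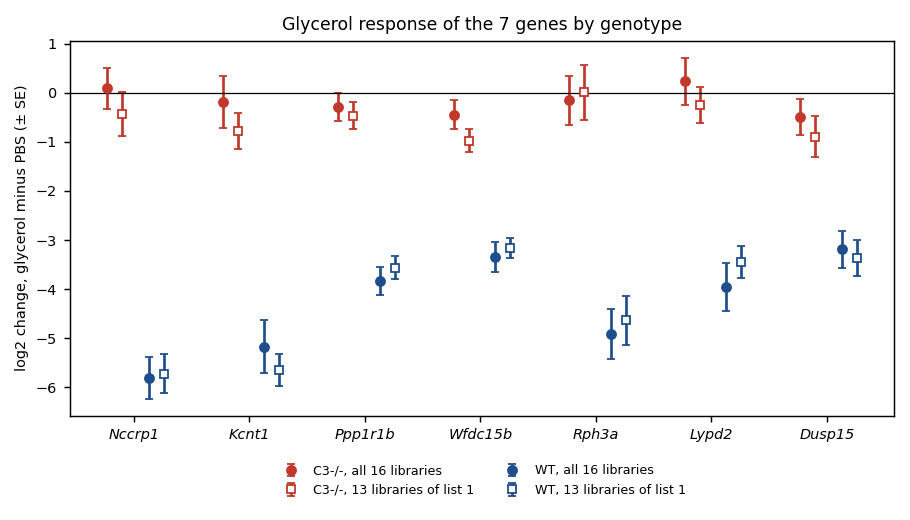
Log2 change of glycerol minus PBS, with its standard error, for each of the 7 genes in C3-/- kidneys (red) and WT kidneys (blue), from all 16 libraries (filled) and from the 13 libraries of list 1 (open). All WT points lie below -3, and all C3-/- points lie between -1 and 0.25.

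Without list 2, the log2 change in C3-/- kidneys was lower for 6 of the 7 genes and ran from -0.98 (Wfdc15b) to 0.01 (Rph3a), against -3.16 (Wfdc15b) to -5.72 (Nccrp1) in WT kidneys. Kcnt1 was at -0.78 and Dusp15 at -0.89 in the C3-/- libraries of list 1. Wfdc15b was called lower with glycerol in C3-/- kidneys in 2 of 27 alternative settings. List 1 alone was 1 of them, and there 4118 genes were called in either direction. In list 1 the C3-/- glycerol group holds only replicates 2 and 4. Over the 7 genes the difference between the responses was between 2.18 (Wfdc15b) and 5.30 (Nccrp1) in list 1. In the 11 libraries with Y-linked transcripts, where C3-/- PBS is a single library, it was between 2.91 (Dusp15) and 6.09 (Nccrp1).

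In PBS kidneys the difference of the 7 genes, C3-/- minus WT, lay between 0.26 ± 0.29 (Ppp1r1b) and 0.95 ± 0.48 (Lypd2), with a median of 0.61 (all genes 0.02). None of the 7 was called there, against 2.23% of all genes, whereas 1 (Lypd2) was in list 1 alone and 5 were with array weights. For each of the 7, 3 of the 4 C3-/- PBS libraries lay above all WT PBS libraries, and the remaining one, replicate 4, was lowest of its group for 7 of 7. Replicate 4 is the C3-/- PBS library with Y-linked transcripts, as all WT libraries are. With Y-linked signal as a covariate the median PBS difference was 0.02, against 0.61 without it. After glycerol, C3-/- replicate 4, also with Y-linked transcripts, was lowest of its group for 6 of 7 genes, and replicate 3, the other one, was lowest for Rph3a and highest for Kcnt1, Wfdc15b and Dusp15.

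The 7 genes followed each other over the 16 libraries, with pairwise Pearson r of log2(value + 1) between 0.89 (Kcnt1 with Lypd2) and 0.98. These r values mostly repeat the low WT glycerol group that chose the genes, and all points share libraries and scaling. After each group mean was subtracted, r ran from -0.33 (Kcnt1 with Rph3a) to 0.88 (Ppp1r1b with Lypd2). Kcnt1 was the member apart from the rest: its r was 0.62 with Dusp15 but 0.33 or less with the other 5. Nccrp1, by contrast, had r between 0.68 and 0.76 with each of the other 5 besides Kcnt1.

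**Figure D3:**
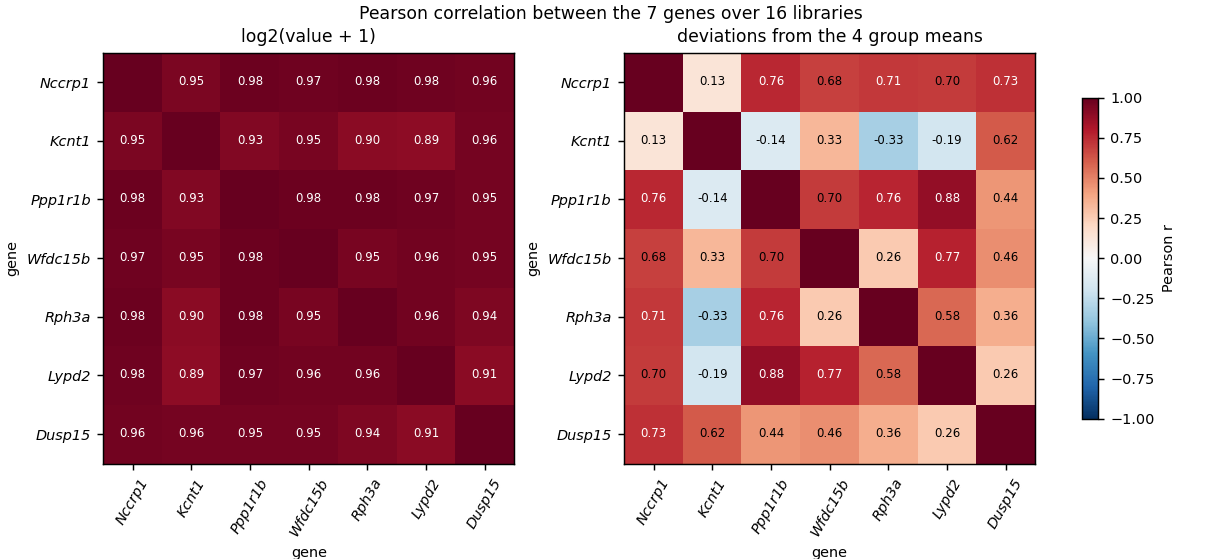
Pearson r between each pair of the 7 genes over 16 libraries, for log2(value + 1) (left) and after subtracting each group's mean (right); red is positive and blue negative. On the left every pair is at 0.89 or above; on the right Kcnt1 is below 0.35 with every gene but Dusp15.

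The genes whose pattern was most like the mean profile of the 7, among named genes with a mean signal of at least 50, were Wscd2 (r = 0.98 over 16 libraries), Fabp3, Acacb, Klkb1, Zfp768, Lrrc66, Cpt1b and Klhl3 (r = 0.97 each). Acacb and Cpt1b act in the control and the mitochondrial entry step of fatty acid oxidation, Fabp3 binds fatty acids, and Klhl3 is the adaptor that marks WNK kinases for degradation in the distal tubule. In the 13 libraries of list 1 the same ranking put Cpt1b 4 and Acacb 5, Fabp3 22, Klhl3 37, Lrrc66 44, Klkb1 60, Zfp768 63 and Wscd2 73, so the order depends on list 2. Their likeness was in shape and not in size: the WT glycerol mean was between 13.8% (Lrrc66) and 60.2% (Zfp768) of the WT PBS mean, and the C3-/- glycerol mean between 65.5% (Lrrc66) and 101.2% (Acacb) of the C3-/- PBS mean. After subtracting group means, r with the profile was 0.76 for Fabp3, 0.74 for Wscd2 and 0.41 for Cpt1b. The closest gene to each member was Acacb for Nccrp1 and Kcnt1, Fabp3 for Ppp1r1b and Rph3a, Wscd2 for Wfdc15b, Aldoc for Lypd2 and Smyd4 for Dusp15, with r between 0.97 and 0.99.

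Markers of nephron segments were not used to pick the 7 genes and were tested on their own, with limma and Benjamini-Hochberg adjustment over all 18035 genes. The marker lists were chosen with earlier results of these data known, so they are not independent of the data. The thick ascending limb, where the sodium, potassium and chloride transporter Slc12a1 works, had 0 of 20 markers called for glycerol in C3-/- kidneys (5 at an unadjusted limma p below 0.05, median log2 change -0.33) and 13 of 20 lower in WT kidneys (median -1.40). Of all genes, 5.63% were called for glycerol in C3-/- kidneys and 13.3% were lower in WT kidneys. After glycerol 11 of the 20 were higher in C3-/- than in WT kidneys (median 1.33), as were 6.38% of all genes. Slc12a1 had 61938, 67747, 25287 and 52202 normalized counts in C3-/- glycerol kidneys, against 7339, 5724, 10405 and 5128 in WT glycerol kidneys, without overlap. Slc12a1 differed between the responses by 2.55 ± 0.44 (limma adjusted p = 0.0153), the only 1 of the 20 called there, where 0.438% of all genes were. Slc12a1 kept that call when any 1 library was left out and lost it with quantile normalization (adjusted p = 0.066). In the 11 libraries with Y-linked transcripts the limma fit called 0 of 17421 genes for the difference between the responses (841 at an unadjusted p below 0.05), the 7 members, Slc12a1 and the other genes named for it below included.

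Egf and Tmem207, other markers of this segment, also had large falls in WT kidneys. The log2 changes of the 7 genes there ran from -5.82 to -3.19. Egf, the growth factor precursor made by the distal tubule, fell by 5.96 ± 0.70 in WT kidneys (limma adjusted p = 4.32e-05) and changed by -2.23 ± 0.70 in C3-/- kidneys (adjusted p = 0.0756). Tmem207 fell by 4.12 ± 0.52 in WT kidneys (limma adjusted p = 7.7e-05) and was 3.79 ± 0.52 higher in C3-/- than in WT kidneys after glycerol (adjusted p = 0.000286). Their differences between the responses, 3.73 ± 0.99 for Egf and 3.52 ± 0.74 for Tmem207, missed the threshold in limma (adjusted p = 0.127 and 0.0548). Unlike the 7 genes, Egf kept only 27.0% of its PBS mean in C3-/- glycerol kidneys. Umod, also a marker of this segment, overlapped between the glycerol groups. It had 72647, 194526, 48871 and 152147 normalized counts in C3-/- glycerol kidneys and 102675, 118713, 115901 and 19329 in WT glycerol kidneys. The glycerol mean of Umod was 88.2% of the PBS mean in C3-/- kidneys and 61.0% in WT kidneys.

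Of 17 markers of the distal convoluted tubule, 2 fell in C3-/- kidneys and 10 in WT kidneys, and 5 were higher in C3-/- than in WT kidneys after glycerol. Among all genes, 1.96% fell and 3.68% rose in C3-/- kidneys, and 13.3% fell and 12.5% rose in WT kidneys. After glycerol, 6.38% of all genes were higher and 4.85% lower in C3-/- than in WT kidneys. Klhl3 had 1188 to 1780 normalized counts in C3-/- glycerol kidneys, against 293.7 to 455.1 in WT glycerol kidneys, and its responses differed by 1.92 ± 0.24 (limma adjusted p = 0.00268). Pvalb, a calcium-binding protein of the early distal convoluted tubule, had 793.4, 638.6, 624.1 and 136.7 in C3-/- glycerol kidneys and 35.6, 9.38, 55.9 and 8.52 in WT glycerol kidneys. Among the glycerol libraries every C3-/- value lay above every WT value, and the log2 difference after glycerol was 4.42 ± 0.57 (limma adjusted p = 0.000163). Calb1 and Slc8a1, of the same list, had lower glycerol means in both genotypes. Those means were 40.9% and 52.5% of the PBS means in C3-/- kidneys and 22.6% and 25.5% in WT kidneys. Over the 17 markers the median difference between the responses was 0.51. Among 14 intercalated cell markers, 0 were called in C3-/- kidneys (5 at an unadjusted limma p below 0.05), 8 fell in WT kidneys and 7 were higher in C3-/- than in WT kidneys after glycerol. The ammonia transporter Rhbg was the 1 of those 14 whose responses differed past the threshold, by 1.07 ± 0.18 (limma adjusted p = 0.012). Of 15 principal cell markers, 0 were called in C3-/- kidneys (again 5 unadjusted), in WT kidneys 5 fell and 2 rose, and after glycerol 5 were higher and 2 lower in C3-/- than in WT kidneys. The principal cell list shares the keratins Krt8 and Krt18 with the list of injury markers. Their WT glycerol means were 377.7% and 709.2% of the WT PBS means. Of 10 thin limb markers, 3 rose in C3-/- kidneys, 3 rose and 3 fell in WT kidneys, and after glycerol 2 were higher and 1 lower in C3-/- than in WT kidneys.

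Proximal tubule markers fell in both genotypes, 5 of 20 in C3-/- kidneys (median -1.22) and 14 of 20 in WT kidneys (median -2.28), with 0 of 20 called for the difference between the responses (2 at an unadjusted limma p below 0.05). The median of that difference was 1.08 for this list and 1.14 for the thick ascending limb. Slc6a19, the neutral amino acid transporter of this segment, fell by 2.49 ± 0.33 in C3-/- kidneys (limma adjusted p = 0.000528) and by 2.44 ± 0.33 in WT kidneys (adjusted p = 0.000129). Pck1, of the same list, kept 109.4% of its PBS mean in C3-/- glycerol kidneys and 12.5% in WT glycerol kidneys. It had 31421 to 92432 normalized counts in C3-/- glycerol kidneys, against 1183 to 10950 in WT glycerol kidneys. Ass1 kept 31.1% and 19.3%, and Slc34a3 32.0% and 12.1%. In the 11 libraries with Y-linked transcripts, where C3-/- PBS is a single library, limma called 7 genes in all for glycerol in C3-/- kidneys, and the C3-/- calls of Slc6a19 (adjusted p = 0.304), Havcr1 (0.115), Fbxo2 (0.422), Dusp5 (0.667), Plaur (0.77) and Wfdc16 (0.922) were lost with their directions kept. The lowest C3-/- change among the 7 genes was -0.49 ± 0.38, for Dusp15. Of 10 podocyte markers and 10 endothelial markers, 0 of either list were called by limma between C3-/- and WT after glycerol (1 and 2 at an unadjusted p below 0.05). Of all genes 11.2% were called there, so a count of 0 in lists this short is near that share. Of 12 macrophage and neutrophil markers, 1 was higher and 4 were lower in C3-/- than in WT kidneys after glycerol, and their summed normalized counts ranged from 6449 to 11880 in C3-/- glycerol kidneys and from 7749 to 10090 in WT glycerol kidneys, with overlap. Of 10 skeletal muscle markers 3 passed the filter, Pvalb among them.

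**Figure D4:**
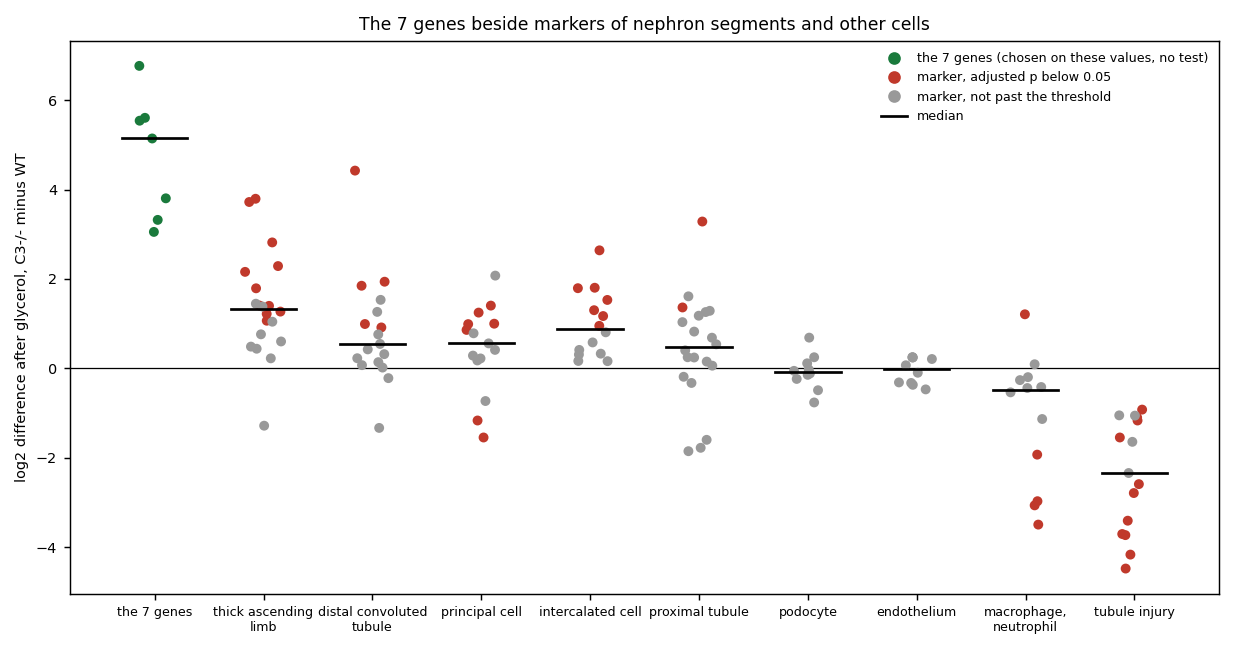
Log2 difference after glycerol, C3-/- minus WT, for the 7 genes (green, chosen on these values) and for marker genes of kidney segments and other cells (red past the limma threshold, gray not); bars are medians. The medians are 5.14 for the 7 genes, 1.33 for the thick ascending limb, 0.47 for the proximal tubule and -2.34 for tubule injury.

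Most of the injury markers rose with glycerol in both genotypes, with the higher median in WT kidneys. Of 15, 9 rose in C3-/- kidneys (median 1.81), where 3.68% of all genes did. In WT kidneys 14 of the 15 rose (median 3.46), as did 12.5% of all genes, and after glycerol 11 were lower in C3-/- than in WT kidneys, as were 4.85% of all genes. Their summed normalized counts ranged from 47208 to 234400 in C3-/- glycerol kidneys, from 32753 to 48528 in C3-/- PBS kidneys, from 504490 to 1367930 in WT glycerol kidneys and from 35670 to 39140 in WT PBS kidneys. The glycerol groups did not overlap in this sum, and the part of injury level in the values of the 7 genes was not tested.

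Havcr1 had 3450, 3579, 1088 and 9458 normalized counts in C3-/- glycerol kidneys and 57982, 46259, 52729 and 28050 in WT glycerol kidneys, and its log2 difference was -3.73 ± 0.57 (limma adjusted p = 0.000706). C3-/- glycerol replicate 4, lowest of its group for 6 of the 7 genes, was highest for Havcr1 and the injury marker Krt8. Replicate 1, highest of that group for 3 of the 7 genes, was also highest for the injury markers Lcn2, Lgals3, Sox9 and Krt18. Lcn2 had 7394 normalized counts in replicate 1 and 3737 in replicate 4. Havcr1 nevertheless rose in C3-/- kidneys by 7.60 ± 0.57 (limma adjusted p = 5.11e-06), where the 7 genes had log2 changes between -0.49 and 0.23. Sox9, which encodes a transcription factor active in tubule repair, was the 1 injury marker called for the difference between the responses, at -4.86 ± 0.61 (limma adjusted p = 0.00286), where 0.216% of all genes were called lower.

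Relatives of the 7 genes were listed by protein family and function. For the difference between the responses, 0 of 5 F-box-associated genes, 13 potassium channels, 12 phosphatase 1 regulators, 16 genes of DARPP-32 signalling, 6 WAP-domain genes, 16 genes of the Rab3 and Rab27 pathway, 14 Ly6 family genes and 24 dual-specificity and slingshot phosphatases were called. The same limma fit called 0.438% of all genes there, and between 0 and 5 genes of each list had an unadjusted p below 0.05. Ppp1r1a, which encodes phosphatase inhibitor 1, the nearest relative of DARPP-32, changed by 0.62 ± 0.48 in C3-/- kidneys and -1.47 ± 0.48 in WT kidneys, and was 2.29 ± 0.48 higher in C3-/- than in WT kidneys after glycerol (limma adjusted p = 0.00587). The difference between its responses, 2.09 ± 0.68, did not pass (limma adjusted p = 0.218). Rab3a, the GTPase that rabphilin-3A binds, changed by -0.01 ± 0.25 in C3-/- kidneys and fell by 1.30 ± 0.25 in WT kidneys (limma adjusted p = 0.00168), and its responses differed by 1.29 ± 0.35 (adjusted p = 0.137). Sytl1, another Rab27 effector, was 1.85 ± 0.30 higher in C3-/- than in WT kidneys after glycerol (limma adjusted p = 0.00116).

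Several relatives were called in both genotypes. Fbxo2, the sugar-binding F-box relative of Nccrp1, rose by 2.61 ± 0.31 in C3-/- kidneys (limma adjusted p = 0.000269) and by 2.46 ± 0.31 in WT kidneys (adjusted p = 8.01e-05). Plaur, the urokinase receptor of the family of Lypd2, rose by 2.53 ± 0.42 in C3-/- kidneys (limma adjusted p = 0.0026) and by 3.72 ± 0.42 in WT kidneys (adjusted p = 3.14e-05). Dusp5, a nuclear phosphatase of ERK kinases, rose by 3.11 ± 0.41 in C3-/- kidneys (limma adjusted p = 0.000523) and by 3.27 ± 0.41 in WT kidneys (adjusted p = 7.3e-05). Wfdc16, encoding a further WAP-domain protein, fell by 3.23 ± 0.61 in C3-/- kidneys (limma adjusted p = 0.00638) and by 4.11 ± 0.61 in WT kidneys (adjusted p = 0.000281). Kcnj1, the potassium channel ROMK of the thick ascending limb, changed by -0.78 ± 0.44 in C3-/- kidneys (limma adjusted p = 0.265) and fell by 1.62 ± 0.44 in WT kidneys (adjusted p = 0.0143). Adcy6, an adenylyl cyclase upstream of protein kinase A, was 0.79 ± 0.15 higher in C3-/- than in WT kidneys after glycerol (limma adjusted p = 0.00322).

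Genes beside the 7 on the chromosome were examined after their values were seen. Of 31 tested genes within 100 kb, 1 rose in C3-/- kidneys (3.68% of all genes did), and 4 rose and 7 fell in WT kidneys (12.5% and 13.3% of all genes). After glycerol 6 of the 31 were higher and 1 was lower in C3-/- than in WT kidneys (6.38% and 4.85% of all genes). Sycn, which encodes the secretory granule protein syncollin and lies 1387 bases from Nccrp1, was the 1 neighbour called for the difference between the responses, at 3.90 ± 0.66 (limma adjusted p = 0.0152). Sycn is a low-abundance gene, with 38.5, 18.3, 34.1 and 13.1 normalized counts in C3-/- glycerol kidneys and 34.9, 25.2, 23.8 and 9.60 in C3-/- PBS kidneys. It was listed at 0.44, 0, 0 and 0 in WT glycerol kidneys, against 23.3, 17.2, 9.56 and 9.06 in WT PBS kidneys, the order of groups seen for Nccrp1. Whether reads of the pair are shared was not tested, and the sources used here do not give the strand setting of the counting. Without WT PBS replicate 2 the call of Sycn was lost (limma adjusted p = 0.0525).

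Annotated genes overlap 2 members with a signal of their own. Nccrp1 lies inside the span of Samd4b on the same strand with 0 shared exonic bases, and Samd4b changed by 0.36 ± 0.21 in C3-/- kidneys and 0.42 ± 0.21 in WT kidneys, neither past the threshold (limma adjusted p = 0.28 and 0.153). Ppp1r1b shares 460 exonic bases with 1700003D09Rik on the opposite strand, whose mean signal was 30.1 beside 1656 for Ppp1r1b. 1700003D09Rik changed by -2.18 ± 0.87 in C3-/- kidneys (limma adjusted p = 0.146) and fell by 4.40 ± 0.87 in WT kidneys (adjusted p = 0.00203), so its values are uncertain, since reads of the pair may not be separable.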

How the data were processed

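The authors deposited 1 matrix of gene signal, read counts normalized with DESeq2, for 20525 genes in 16 kidney libraries, and 3 tables of their own comparisons with log2 fold changes and adjusted p-values. The authors name STAR (version 2.7.1), R (3.6.1), DESeq2 and build GRCm38 in the submitters' processing notes, and the name of the deposited matrix gives Ensembl release 96. The sources used here do not name the counting program. Whole multiples of a library's lowest value (tolerance 0.01) made up 1.78% to 2.11% of its values, so whole reads were not recovered, depth is unknown, and precision rests on the spread between libraries. Normalized counts summed to 25.8 M to 38.4 M per library.

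Groups came from the sample titles. Log2(value + 1) was fitted with limma 3.58.1 in R 4.3.3 (1 coefficient per group, mean-variance trend, two-sided) for genes at 10 or more in at least 4 libraries, and p was Benjamini-Hochberg adjusted over 18035 genes. Standard errors are from that fit. Genes were called at an adjusted p below 0.05. The fit was checked on simulated data. Positions are from GENCODE M21. Members and gene lists were chosen with earlier results of these data known. Named genes were all 7 members, the 8 most alike in profile, up to 4 per list by smallest p, every list gene called for the difference between responses, some fixed markers and overlapping genes. Alternatives covered the pseudocount, filter, scaling, weights, replicate block, library lists, Y-linked signal and each library left out.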

Additional observations from a re-analysis of the deposited data

Results flagged for a closer look

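Of the 79 genes whose glycerol responses differed between C3-/- and WT kidneys by limma's test of the difference itself (adjusted p below 0.05), 5 stood on the lists of segment and injury markers, relatives and chromosomal neighbours. These were Slc12a1 (2.55), Klhl3 (1.92), Rhbg (1.07) and Sycn (3.90), all more positive in C3-/- kidneys, and Sox9 (-4.86), less positive in C3-/- kidneys. Klhl3 is also among the genes named for a profile like that of the 7, and Sycn was looked at only as a neighbour of Nccrp1. The 7 members, whose choice rested on the same difference, are not counted here.

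Among 28 groups of 4 member values, 0 held a library apart from the others by Dixon's criterion, where chance would flag about 1 group in 20.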

How the results depend on the processing

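Over 27 alternative settings (26 for Rph3a and Lypd2, which a mean filter of 100 removes) the fall in WT kidneys, the excess of C3-/- over WT kidneys after glycerol and the difference between the responses kept their signs for all 7 genes, with ranges over settings for the last from 2.18 to 3.23 for Wfdc15b and from 5.09 to 6.28 for Nccrp1. The difference between the responses was called for Dusp15 in only 14 of 27 settings. For each other member it was called in 26 of 27 or 25 of 26.

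The members' median changed as follows. A pseudocount of 8 gave -3.32 for WT glycerol, 3.42 after glycerol and 2.88 for the difference between responses; array weights gave -3.44, 4.15 and 2.99. After glycerol and for the difference, a mean of at least 100 gave 3.80 and 3.54, quantile normalization 4.50 and 3.54, and list 1 alone 4.15 and 3.20. The PBS difference was 0.046 with list and Y-linked covariates and 0.024 with the Y-linked covariate alone. In the 11 libraries with Y-linked transcripts, a setting chosen after seeing the data, it was 0.009, and the change in C3-/- kidneys was 0.28.

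Counts of genes called are given in the order C3-/- glycerol, WT glycerol, C3-/- over WT after glycerol, C3-/- over WT after PBS and difference between responses (all libraries: 1016, 4666, 2025, 402 and 79). Array weights gave 5589, 10902, 6439, 6869 and 3225, and list 1 alone 4118, 9925, 5373, 3448 and 1845. List and Y-linked covariates gave 3341, 8817, 6016 and 1508, without PBS, where the Y-linked covariate alone gave 150. A mean of at least 100 gave 1262 after glycerol, 203 after PBS and 48 for the difference, for which a pseudocount of 8 gave 141. Libraries with Y-linked transcripts gave 7, 729, 35 and 0 for C3-/- glycerol, after glycerol, after PBS and the difference. Leaving out 1 library gave 491 to 2785 for C3-/- glycerol, 1361 to 4367 after glycerol, 211 to 614 after PBS and 38 to 211 for the difference. The members' medians then ran from 4.63 to 5.43 after glycerol and from 3.68 to 4.48 for the difference. The causes were not tested.

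Among the other genes named for a difference between the responses, Slc12a1 missed the threshold with quantile normalization (adjusted p = 0.066) and Sycn with a pseudocount of 8 (0.131) and quantile normalization (0.16). The libraries with Y-linked transcripts called none of Slc12a1, Klhl3, Rhbg, Sycn and Sox9 for it, nor Ppp1r1a and Sytl1 after glycerol, nor Havcr1, Slc6a19, Fbxo2, Dusp5, Plaur and Wfdc16 for glycerol in C3-/- kidneys.

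Replicate numbers did not pair the libraries: same-numbered deviations correlated from -0.69 to 0.38, with 4 of 24 pairs over 0.1. With the replicate block, 632 genes were called for C3-/- glycerol and 41 for the difference between responses, and Slc12a1 (adjusted p = 0.0514) and Rhbg (0.0558) missed the threshold. Depth is unknown, so values near 0 cannot be given an interval.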
